A study of Mus musculus with 4 samples.

Results

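The insulin-like growth factor (IGF) axis was followed here through 10 genes: the ligands Igf1 and Igf2, the receptors Igf1r and Igf2r, and the binding protein genes Igfbp2, Igfbp3, Igfbp4, Igfbp5, Igfbp6 and Igfbp7. They were chosen by symbol and all 10 were found among the 23351 rows of the deposited gene table. The cells were primary satellite cells, which are the resident stem cells of muscle, taken from a hindlimb muscle, the extensor digitorum longus, of 6 to 8 week old C57BL/6 mice. There were 2 libraries from ERβ scKO mice, which the design text calls ERβ cKO, and 2 libraries from Control mice. By its title the series concerns young females and asks how estrogen receptor β acts on muscle mass and on the multiplication of muscle stem cells. The design text speaks of triplicates, while the 4 libraries used here are 2 per group. The allele, the driver of the deletion, the genotype of the Control mice and any treatment shared by both groups are not given in the sources used here. Nor is it stated whether the 2 libraries of a group came from separate animals. The errors below therefore rest on the spread between libraries, which may be technical.

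Both ligands act through the tyrosine kinase receptor encoded by Igf1r, which signals through insulin receptor substrates, PI3K and AKT to mTOR and the FoxO factors. Igf2r encodes the mannose 6-phosphate receptor, which takes IGF2 up and delivers it to lysosomes without signalling as a kinase does. The binding proteins are secreted, hold IGFs outside the cell and can limit or prolong their access to the receptor. In muscle, IGF signalling supports both the multiplication and the differentiation of myoblasts, and Igf2 is made by myoblasts as they differentiate.

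Igfbp5 and Igfbp2 lie next to each other on chromosome 1 and are transcribed towards each other, and Igfbp4 was the binding protein gene with the second largest positive difference. The bases just upstream of their transcription starts are shown for this reason. They come from RefSeq, 5′ to 3′ on the strand of each gene, and capitals mark E-boxes (CANNTG, the motif of myogenic factors and other proteins) and the TATA box (TATAAA).
Igfbp5, GRCm38.p6, chr1:72874866-72875115, minus strand: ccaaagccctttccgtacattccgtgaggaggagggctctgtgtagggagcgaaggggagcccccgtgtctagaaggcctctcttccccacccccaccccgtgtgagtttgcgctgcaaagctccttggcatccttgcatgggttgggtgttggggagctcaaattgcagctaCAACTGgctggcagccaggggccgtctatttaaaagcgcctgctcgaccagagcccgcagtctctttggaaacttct
Igfbp2, GRCm38.p6, chr1:72824230-72824479, plus strand: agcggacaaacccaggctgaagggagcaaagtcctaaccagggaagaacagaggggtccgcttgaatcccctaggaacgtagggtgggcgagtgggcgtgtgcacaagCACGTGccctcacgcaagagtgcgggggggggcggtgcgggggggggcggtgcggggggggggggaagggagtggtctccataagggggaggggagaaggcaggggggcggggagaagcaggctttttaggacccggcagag
Igfbp4, GRCm38.p6, chr11:99040994-99041243, plus strand: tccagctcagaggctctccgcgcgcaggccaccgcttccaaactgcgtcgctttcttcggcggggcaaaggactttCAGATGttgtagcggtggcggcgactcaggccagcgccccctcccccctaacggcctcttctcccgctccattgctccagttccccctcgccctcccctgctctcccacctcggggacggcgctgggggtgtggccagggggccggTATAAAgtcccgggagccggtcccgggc
E-boxes were searched on both strands in the 250 bases before each start. Each of these 3 windows held 1 E-box, which 66.2% of 32851 promoter windows of the same length also did. The Igfbp5 and Igfbp2 windows held no TATAAA, which was found in 12.4% of all windows. The palindromic estrogen response element GGTCANNNTGACC was in none of the 14 windows annotated for the 10 genes, and in 0.1% of all windows. A single arm of it, GGTCA, was in 8 of the 14 windows, against 35.2% of all windows, and in none of the 3 shown. Igfbp2 has another annotated window, not shown (chr1:72825137-72825386), which held 1 such arm. These matches describe the letters of the windows only.

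Expression was given as FPKM, fragments normalised to transcript length and library size, so that levels can be compared between genes. The steps between low values put the depth near 3000000 and 3200000 fragments in ERβ scKO replicates 1 and 2, and near 2700000 and 3200000 in Control replicates 1 and 2. A mean of at least 1 FPKM over the 4 libraries was reached by 11201 genes, among them 9 of the 10 IGF axis genes; Igf1 did not reach it. Esr2, which encodes ERβ, was listed at 0 in both ERβ scKO libraries, against 0.234 and 0.202 FPKM in the Control libraries. Those Control values correspond to about 2 fragments each, and 3 fragments would be 0.297 to 0.345 FPKM over the 4 libraries, so its values do not check the labels. Satellite cell and myoblast markers were present in all 4 libraries: the 7 on the list summed to 984 and 958 FPKM in ERβ scKO and to 1059 and 933 FPKM in Control. Over the 4 libraries Pax7 was at 10.4 to 10.7 FPKM, Myod1 at 315 to 385 FPKM and Des at 408 to 440 FPKM. Markers of differentiating myocytes were present too, with Myog at 494 to 660 FPKM.

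The most abundant IGF axis transcript was Igf2 and the least abundant Igf1. Averaged over the 4 libraries, the order was Igf2 at 189 FPKM, Igfbp2 at 129, Igfbp3 at 90.9, Igfbp5 at 43.4, Igfbp7 at 41.2, Igf2r at 33.5, Igfbp4 at 15.0, Igf1r at 9.11, Igfbp6 at 1.55 and Igf1 at 0.196 FPKM. Libraries of neighbouring genes overlapped from Igf2 to Igfbp3 and from Igfbp5 to Igf2r. Igfbp4, with 12.2 to 19.6 FPKM, lay below every library of Igf2r (31.6 to 35.8 FPKM) and above every library of Igf1r (8.38 to 9.81 FPKM).

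**Figure D1:**
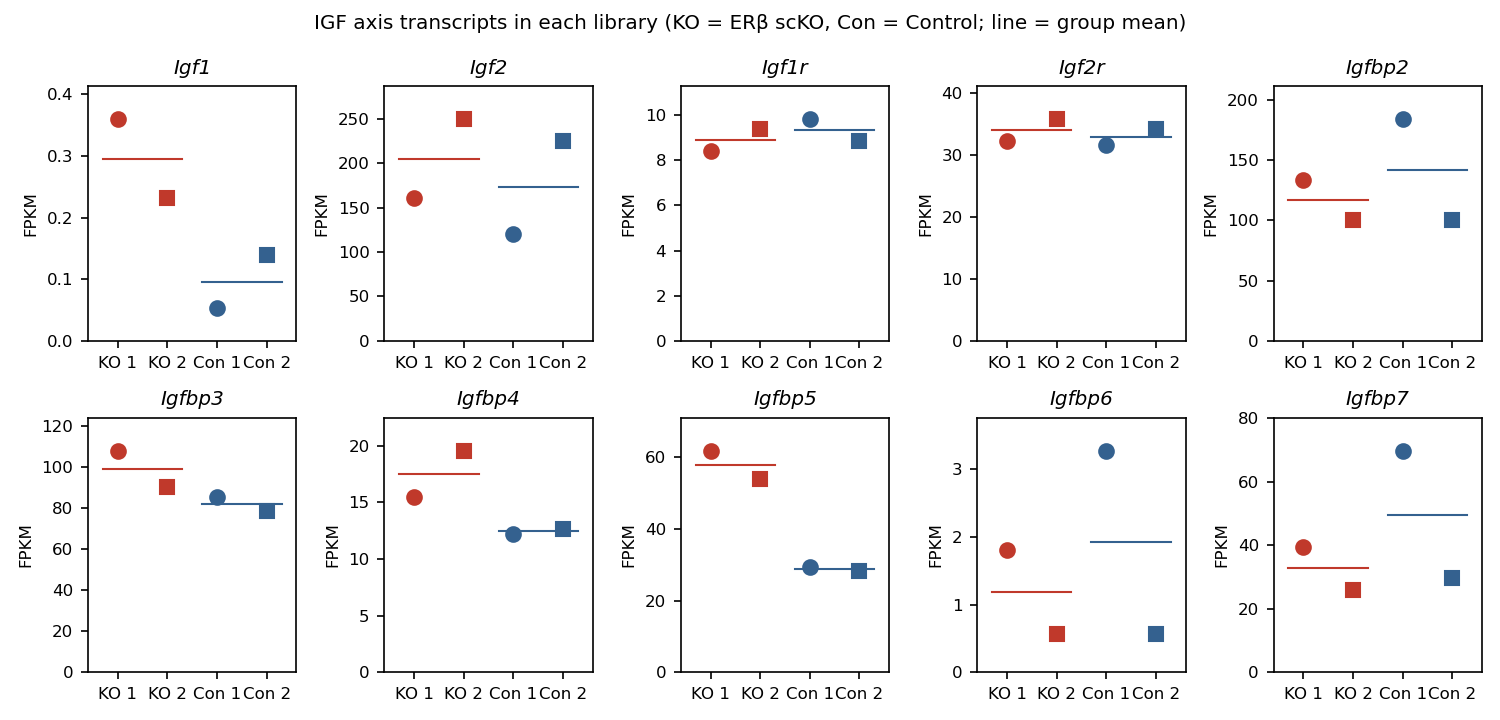
FPKM (vertical axes, from 0, a separate scale for each gene) of the 10 IGF axis genes in each library, ERβ scKO (KO) on the left and Control (Con) on the right, circles for replicate 1, squares for replicate 2 and lines for group means. Igfbp5 sits at 53.9 and 61.9 FPKM in ERβ scKO, above both Control libraries. Igf2, Igf2r, Igfbp2, Igfbp6 and Igfbp7 separate by replicate number.

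Across the axis, the binding protein Igfbp5 showed the largest difference between ERβ scKO and Control cells, about 2.0 times as high in ERβ scKO, and Igf2 and both receptors differed by less than the spread between libraries. None of the 9 measured genes passed limma's test at an adjusted p of 0.05 over all genes, where 4 of 11201 (0.0357%) did. At limma's unadjusted p under 0.05 there were 2 of 9, Igfbp5 and Igfbp4, both higher in ERβ scKO, against 4.62% of all genes in either direction and 2.43% in that one. With replicate number as a block, which the labels share without saying what it marks, there were 5 of 9 (Igfbp3, Igfbp4, Igfbp5 and Igf2 higher and Igfbp7 lower in ERβ scKO), against 8.45% of all genes. The pair of ERβ scKO libraries lay entirely above the pair of Control libraries in 3 of the 9 measured genes (Igfbp3, Igfbp4 and Igfbp5) and entirely below in 0, against 18.3% of all measured genes in each direction. The mean was higher in ERβ scKO in 5 of the 9 and lower in 4, with a median log2 ratio of 0.05, beside −0.0037 over all measured genes. That median was 0.15 over the 8 genes averaging 5 FPKM or more, 0.14 over all 10 with no filter, 0.21 and 0.10 without Control replicate 1 and 2, and 0.12 and −0.03 without ERβ scKO replicate 1 and 2. Log2 ratios are limma's, ERβ scKO minus Control, of FPKM + 1, so differences of scarce transcripts come out too small. Counts of genes with a higher or lower mean go by the sign of this log2 ratio. The 4 genes that passed, named after their values were seen, were the small nucleolar RNAs Snord35a, Snora31 and Snora23 and the ribosomal RNA precursor Rn45s. That count was 10 without the first and 7 without the second ERβ scKO library, and 8 without the first and 11 without the second Control library; the count of IGF axis genes was 0 in each.

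**Figure D2:**
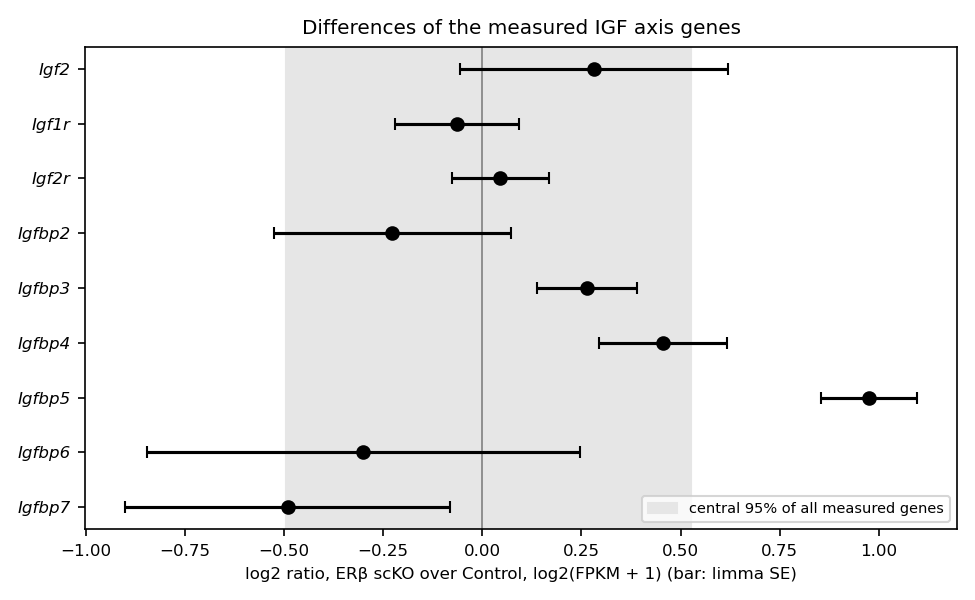
Log2 ratio of FPKM + 1, ERβ scKO over Control, for the 9 measured IGF axis genes, with limma's standard error as bars and the central 95% of all measured genes (−0.50 to 0.53) shaded. Igfbp5, at 0.98, lies outside the shaded range and the other 8 genes lie within it.

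Igfbp5 encodes a secreted binding protein that muscle cells make as they differentiate, and that also binds extracellular matrix. The gene (mm10, chromosome 1, 72858065 to 72874865, minus strand) was at 61.9 and 53.9 FPKM in ERβ scKO replicates 1 and 2, against 29.4 and 28.4 FPKM in Control replicates 1 and 2. Both ERβ scKO libraries were high and the groups did not overlap, with the lowest ERβ scKO library 1.84 times the highest Control library. Group means were 57.9 ± 5.61 FPKM in ERβ scKO and 28.9 ± 0.672 FPKM in Control (SD, n = 2 each). The log2 ratio was 0.98 with a standard error of 0.12, and limma's adjusted p over all genes was 0.299. In the authors' deposited table Igfbp5 had a p of 5e-05 and a q of 0.0589, and it was the 1 of 8 IGF axis genes they tested with a p under 0.05. Of all genes they tested, 3.25% had such a p in either direction and 1.33% were higher in ERβ scKO with such a p. By size of log2 ratio Igfbp5 exceeded 99.3% of the 11201 measured genes. These levels stand for about 1063 and 990 fragments in ERβ scKO and about 467 and 525 in Control, for which counting alone gives a standard error of at most 4.63%. Same-numbered libraries gave ratios of 2.11 (replicate 1) and 1.90 (replicate 2).

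Other transcripts also differed between the groups, some higher and some lower in ERβ scKO, and their part in the Igfbp5 difference was not tested. The nuclear RNA Malat1, whose level can vary with RNA quality, was at 141 and 166 FPKM in ERβ scKO, against 63.5 and 115 FPKM in Control. Neat1, another nuclear RNA, was at 129 and 143 FPKM in ERβ scKO, against 79.7 and 90.8 FPKM in Control. The 9 markers of differentiating myocytes were all measured. They summed to 4641 and 5388 FPKM in ERβ scKO and to 3418 and 4848 FPKM in Control, so the sums overlapped. In 4 of the 9 (Myog, Tmem8c, Gm7325 and Acta1) ERβ scKO lay entirely above Control, against 18.3% of measured genes. The mean was higher in ERβ scKO in 8 of the 9, against 5523 of the 11201 measured genes. At limma's unadjusted p under 0.05 there was 1 of 9 (Tmem8c), against 4.62% of all measured genes. None passed limma's test at the adjusted p. All 6 measured fibroblast markers had a lower mean of log2(FPKM + 1) in ERβ scKO, as did 5678 of the 11201 measured genes. For Dcn the mean FPKM was nearly equal, at 1.28 in ERβ scKO and 1.27 in Control. In 2 of the 6 (Col1a2 and Col3a1) the groups separated with ERβ scKO lower, which held for 18.3% of measured genes. The median log2 ratio of the 6 was −0.26 and none was called by limma. Col1a1, a collagen gene, was at 2.09 and 1.40 FPKM in ERβ scKO, against 18.7 and 0.909 FPKM in Control. In the authors' deposited table Col1a1 had the same p of 5e-05 and q of 0.0589 as Igfbp5, although only Control replicate 1 was high. In bulk libraries more cells of a type and more RNA per cell cannot be told apart. By the root mean square difference of centred log2 values over the 4 libraries, the measured genes nearest to Igfbp5 were Rep15 (0.06), Cd55 (0.10) and Ppp1r14c (0.10). Cd55, which encodes a regulator of complement, was at 5.74 and 5.11 FPKM in ERβ scKO, against 2.18 and 2.69 FPKM in Control.

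Igfbp4, whose product binds both ligands and is cleaved by the protease PAPP-A, was at 15.5 and 19.6 FPKM in ERβ scKO, against 12.2 and 12.7 FPKM in Control (chromosome 11, 99041260 to 99052643). Both ERβ scKO libraries lay above both Control libraries, by a smaller margin than for Igfbp5. Its log2 ratio was 0.46 with a standard error of 0.16, and limma's adjusted p was 0.837; the ratio was 0.30 without ERβ scKO replicate 2, which moved it by more than 1.5 times. About 167 and 225 fragments in ERβ scKO and about 121 and 147 in Control lie behind these values.

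Igfbp3, which encodes the main carrier of IGFs in blood, was at 108 and 90.6 FPKM in ERβ scKO, against 85.8 and 78.9 FPKM in Control (chromosome 11, 7206091 to 7213923). The groups did not overlap, but the lowest ERβ scKO library was only 1.06 times the highest Control library. Its log2 ratio was 0.26 with a standard error of 0.13 and an adjusted p of 0.837 by limma, and it was 0.14 without ERβ scKO replicate 1.

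Igfbp2, the most abundant of the binding protein transcripts, was at 133 and 101 FPKM in ERβ scKO, against 184 and 99.9 FPKM in Control (chromosome 1, 72824480 to 72852471, the neighbour of Igfbp5). Control replicate 1 was the high library, and the replicate 2 libraries were at nearly the same level, with a ratio of 1.01. The log2 ratio of −0.23, with a standard error of 0.30, had an adjusted p of 0.884 by limma. It became 0.21 when Control replicate 1 was left out and −0.66 when Control replicate 2 was; leaving out ERβ scKO replicate 1 gave −0.43 and replicate 2 −0.03.

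Igfbp7 encodes a secreted relative of the family with weak affinity for IGFs. It was at 39.5 and 26.0 FPKM in ERβ scKO, against 69.7 and 29.6 FPKM in Control (locus of chromosome 5, 77310484 to 77408045, which the table also gives for the overlapping gene Polr2b). Control replicate 1 was again the high library and the groups overlapped. Its log2 ratio was −0.49 with a standard error of 0.41 and an adjusted p of 0.846 by limma. Leaving out Control replicate 1 turned it to 0.11 and leaving out Control replicate 2 made it −1.10; without the first or the second ERβ scKO library it was −0.78 or −0.20.

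Igfbp6, whose product prefers IGF2 to IGF1, was the scarcest binding protein transcript measured. Levels were 1.81 and 0.566 FPKM in ERβ scKO, against 3.27 and 0.564 FPKM in Control (chromosome 15, 102144186 to 102149512), about 5 and 2 fragments against about 8 and 2. Any difference between the groups was not detectable at this depth (log2 ratio −0.30, standard error 0.55, adjusted p 0.91 by limma); the ratio turned to 0.42 when Control replicate 1 was left out and to 0.12 when ERβ scKO replicate 2 was, and was −1.03 and −0.72 when the other library of each group was.

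Summed over the 6 Igfbp genes, the level was 359.9 and 291 FPKM in ERβ scKO, against 384 and 250.03 FPKM in Control. Sums were higher in replicate 1 of both groups, and the groups overlapped. Igfbp5 made up 17.2% and 18.5% of the sum in ERβ scKO, against 7.64% and 11.4% in Control. Igfbp2 made up 37.0% and 34.5% in ERβ scKO, against 47.9% and 40.0% in Control. Igfbp7 made up 11.0% and 8.94% in ERβ scKO, against 18.1% and 11.8% in Control. The shares of Igfbp3, Igfbp4 and Igfbp6 overlapped between the groups, and Igfbp3, for example, made up 30.0% and 31.1% in ERβ scKO, against 22.3% and 31.6% in Control. Within a library, the ratio of Igfbp5 to its neighbour Igfbp2 was 0.465 and 0.537 in ERβ scKO, against 0.160 and 0.284 in Control. The ratio of Igfbp5 to Igfbp3 was 0.572 and 0.595 in ERβ scKO, against 0.342 and 0.360 in Control. The ratio of Igfbp5 to Igf2 was 0.386 and 0.216 in ERβ scKO, against 0.245 and 0.126 in Control, and overlapped. For the shares of Igfbp5, Igfbp2 and Igfbp7 and the ratios of Igfbp5 to Igfbp2 and to Igfbp3 the groups did not overlap. An exact two-sided permutation test gave p = 0.333 for each of these, the smallest that 2 libraries against 2 allow. The exact test gave p = 1 for the sum and the Igfbp3 share, and p = 0.667 for the shares of Igfbp4 and Igfbp6 and the ratio of Igfbp5 to Igf2. These shares and ratios are built from the same values as the gene levels above and are no separate evidence.

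**Figure D3:**
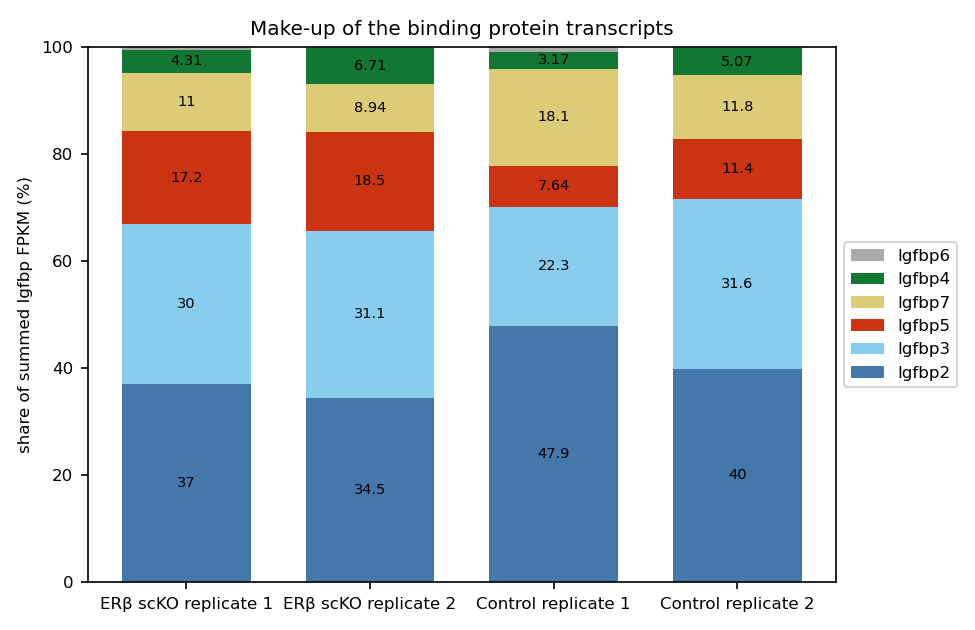
Share of each Igfbp gene in the summed FPKM of the 6 Igfbp genes (vertical axis, percent, from 0), 1 bar per library with ERβ scKO on the left. The Igfbp5 segment is 17.2% and 18.5% in ERβ scKO and 7.64% and 11.4% in Control.

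Among the ligands, Igf2 differed more between replicate numbers than between genotypes. It was at 160 and 249 FPKM in ERβ scKO replicates 1 and 2, against 120 and 225 FPKM in Control replicates 1 and 2 (locus of chromosome 7, 142650768 to 142670356). Replicate 2 was the high library in both groups, by 1.56 times in ERβ scKO and by 1.88 times in Control, and the groups overlapped. Group means were 205 ± 63.0 FPKM in ERβ scKO and 173 ± 74.7 FPKM in Control (SD, n = 2 each). The log2 ratio of 0.28, with a standard error of 0.34, had an adjusted p of 0.873 by limma. It became −0.17 when Control replicate 1 was left out and 0.73 when Control replicate 2 was; leaving out ERβ scKO replicate 1 gave 0.60 and replicate 2 −0.04. H19, the imprinted RNA next to Igf2, was likewise higher in replicate 2, with 1985 and 2428 FPKM in ERβ scKO and 1977 and 2516 FPKM in Control. The antisense transcript of the same locus was listed at 0.293 and 0.550 FPKM in ERβ scKO and 0.239 and 0.275 FPKM in Control; the kit was stranded, but whether the counting used strand is not given in the sources used here.

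Igf1, the other ligand (chromosome 10, 87859056 to 87937047), was close to the limit of detection. It was listed at 0.360 and 0.232 FPKM in ERβ scKO, against 0.0532 and 0.139 FPKM in Control, about 7 and 5 fragments against about 1 and 3. The values did not overlap between the groups, but 3 fragments correspond to between 0.138 and 0.160 FPKM over the 4 libraries. The authors did not test it and it was too low for the fit, so no fold change is given. Insulin genes Ins1 and Ins2, which encode the other ligands of this receptor family, were listed at 0 in all 4 libraries.

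The receptors differed between the groups by less than the spread of the libraries. Igf1r was at 8.38 and 9.39 FPKM in ERβ scKO, against 9.81 and 8.85 FPKM in Control (chromosome 7, 67952257 to 68233667), with a log2 ratio of −0.06, a standard error of 0.16 and an adjusted p of 0.939 by limma. Igf2r was at 32.3 and 35.8 FPKM in ERβ scKO, against 31.6 and 34.3 FPKM in Control (locus of chromosome 17, 12682406 to 12868143), with a log2 ratio of 0.05, a standard error of 0.12 and an adjusted p of 0.946 by limma. For both genes the groups overlapped, and the sign turned when a library was left out: Igf1r ran from −0.14 to 0.01, turning when replicate 1 of either group was dropped. Igf2r ran from −0.03 to 0.12, turning when Control replicate 1 or ERβ scKO replicate 2 was dropped. Igf2r was 3.85 and 3.82 times as abundant as Igf1r in ERβ scKO, against 3.22 and 3.88 times in Control. Airn, the imprinted RNA antisense to Igf2r, was at 10.1 and 11.4 FPKM in ERβ scKO, against 3.64 and 12.0 FPKM in Control. Insr, the insulin receptor, was at 5.22 and 6.17 FPKM in ERβ scKO and at 4.72 and 6.24 FPKM in Control.

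Some IGF axis genes separated by replicate number, as did a share of all measured genes. Of the 9 measured genes, Igfbp2, Igfbp6 and Igfbp7 were higher in both replicate 1 libraries than in either replicate 2 library, against 20.2% of all measured genes. Igf2 and Igf2r were higher in both replicate 2 libraries, against 18.8% of all measured genes. With 9 genes, 3 and 2 are close to these shares. Markers of other cells and stages also differed by replicate number, and their part in these differences was not tested. All 6 measured fibroblast markers, of 9 on the list, were higher in replicate 1 than in replicate 2 within each group. By this looser comparison within each group, 5 of the 9 IGF axis genes (Igfbp2, Igfbp3, Igfbp5, Igfbp6 and Igfbp7) were higher in replicate 1. Another 3 (Igf2, Igf2r and Igfbp4) were higher in replicate 2. No share over all genes is given for the looser comparison, so its counts do not set the axis or the marker lists apart from other genes. Pdgfra, which marks fibroblasts and their progenitors, was at 2.64 and 0.149 FPKM in ERβ scKO replicates 1 and 2, against 3.17 and 0.446 FPKM in Control replicates 1 and 2. Fibroblast markers summed to 124 and 109 FPKM in ERβ scKO and to 188 and 126 FPKM in Control, with Lum and Tcf21 listed at 0 in every library. Most of each sum came from Col1a2 (44.1 to 78.3 FPKM) and Col3a1 (61.4 to 81.0 FPKM). Of the 9 myocyte markers 7 were higher in replicate 2 in both groups. Summed markers of other cell types reached at most 8.50 FPKM for endothelial cells, 4.57 for immune cells, 3.48 for Schwann cells and 2.31 for adipocytes in any library. Pericyte and smooth muscle markers summed to 79.8 and 72.1 FPKM in ERβ scKO and to 70.6 and 72.9 FPKM in Control. Most of each sum was Rgs5 (42.3 to 61.4 FPKM), while Myh11 reached at most 0.263 FPKM and Kcnj8 at most 0.157 FPKM.

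**Figure D4:**
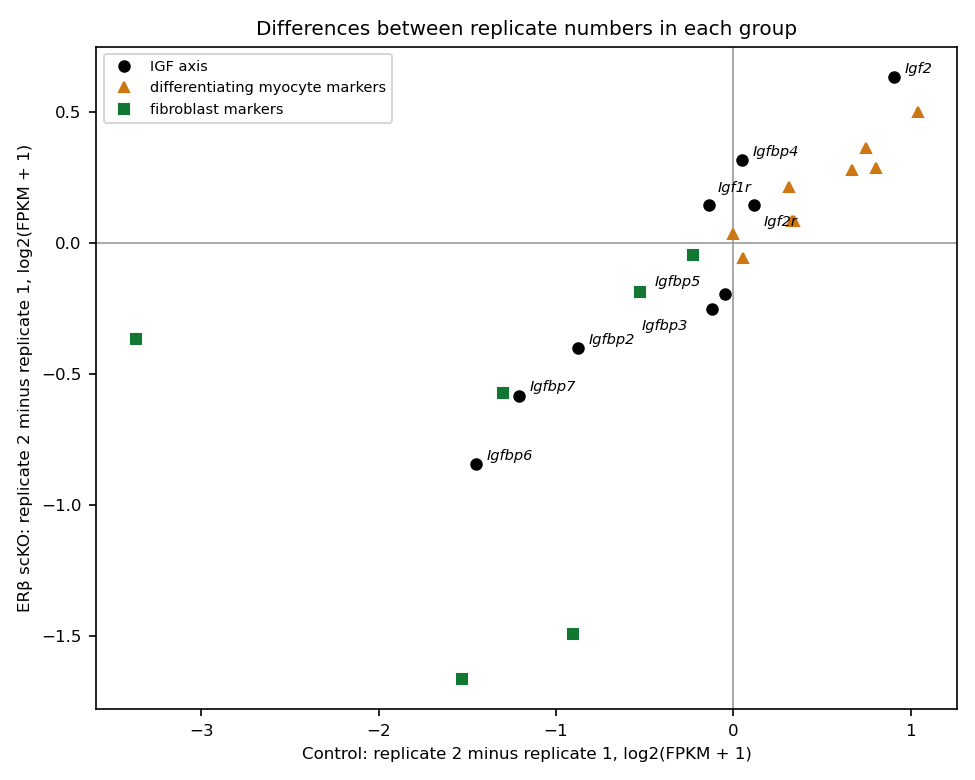
Replicate 2 minus replicate 1 on the log2(FPKM + 1) scale, within ERβ scKO (vertical axis) and within Control (horizontal axis), for the 9 measured IGF axis genes (circles), 9 myocyte markers (triangles) and 6 fibroblast markers (squares). Igfbp2, Igfbp6 and Igfbp7 lie at the lower left with the fibroblast markers, as do Igfbp3 and Igfbp5 nearer the origin. Igf2 lies at the upper right with the myocyte markers, as do Igf2r and Igfbp4 nearer the origin. Igfbp5 lies near 0 on the horizontal axis.

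The other genes of the pathway were not called either. Of 67 genes on 6 lists, 53 were measured, 0 passed limma's adjusted p over all genes, 26 had a higher and 27 a lower mean in ERβ scKO, and the median log2 ratio was −0.01. At limma's unadjusted p under 0.05 there were 2 of the 53, Rps6kb2 and Ptpn11, against 4.62% of all measured genes. Of the 49 that the authors' deposited table gives as tested, 0 had a q and 1 (Rps6kb2) a p under 0.05, against 3.25% of all genes they tested at that p. With each library left out in turn, the log2 ratio of 27 of the 53 turned sign at least once. The groups did not overlap in part of the 53, with ERβ scKO above in 7 and below in 12, against 18.3% of all measured genes in each direction.

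Among proteins that act on the binding proteins, 6 of 10 genes were measured, with a median log2 ratio of 0.12 and none called. The proteases Adam12, Htra1 and Adam9 had log2 ratios of −0.24, 0.21 and 0.16. With a library left out, Adam12 ran from −0.46 (without Control replicate 2) to −0.01 (without Control replicate 1). Without Control replicate 2 Htra1 turned to −0.06 and Adam9 was 0.05, and without Control replicate 1 they were 0.47 and 0.28. Pappa, the protease of IGFBP4, was listed at 0.124 and 0 FPKM in ERβ scKO, against 0 and 0.0583 FPKM in Control. Among proteins that bind Igf2 messenger RNA, Igf2bp2 was at 15.6 and 15.5 FPKM in ERβ scKO, against 12.1 and 14.2 FPKM in Control, with a log2 ratio of 0.23, which was 0.12 without Control replicate 1. Igf2bp3 had a log2 ratio of 0.11, which turned to −0.25 without Control replicate 1 and to −0.02 without ERβ scKO replicate 1, and was 0.46 without Control replicate 2. H19 had a log2 ratio of −0.02, which ran from −0.20 without Control replicate 1 to 0.15 without Control replicate 2. The Igfbp1 and Igfbpl1 genes were listed at 0 in every library.

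Among substrates and adaptors of the receptor, 8 of 11 measured genes had a lower mean in ERβ scKO, as did 5678 of all 11201 measured genes. In 4 of the 11 the ERβ scKO pair lay entirely below the Control pair, which 18.3% of all measured genes also did. Their median log2 ratio was −0.13 and none was called by limma. Ptpn11, a phosphatase that promotes receptor signalling, was at 45.8 and 49.8 FPKM in ERβ scKO, against 58.3 and 59.1 FPKM in Control, with a log2 ratio of −0.29. Socs3, a feedback inhibitor of cytokine and insulin signalling, was at 1.46 and 1.12 FPKM in ERβ scKO, against 2.59 and 1.49 FPKM in Control, with a log2 ratio of −0.39. The Socs3 ratio was −0.13 without Control replicate 1 and −0.65 without Control replicate 2. The substrate Irs2 had a log2 ratio of −0.29, which was −0.09 or −0.49 when ERβ scKO replicate 1 or 2 was left out. Irs1, the more abundant substrate, was at 15.4 and 19.7 FPKM in ERβ scKO, against 16.0 and 17.8 FPKM in Control.

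Among PI3K and AKT genes all 12 were measured and none called, with a median log2 ratio of −0.07. The ERβ scKO pair lay entirely below the Control pair in 5 of the 12 and above it in 1, where the share of all measured genes was 18.3% in each direction. Akt1, a kinase at the centre of the pathway, was at 109 and 94.3 FPKM in ERβ scKO, against 156 and 110 FPKM in Control, with a log2 ratio of −0.37 and limma's adjusted p of 0.837. Control replicate 1 was the high library for Akt1 and for Pik3r2, a regulatory subunit of PI3K, which was at 9.61 and 8.48 FPKM in ERβ scKO, against 17.0 and 8.57 FPKM in Control. Without that library the Akt1 ratio was −0.11 and without Control replicate 2 it was −0.62. The Pik3r2 ratio, −0.39, turned to 0.07 without Control replicate 1 and was −0.84 without Control replicate 2. Phlpp2, a phosphatase that acts on AKT, was at 3.39 and 3.55 FPKM in ERβ scKO, against 4.84 and 4.79 FPKM in Control, with a log2 ratio of −0.38.

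In the mTOR, translation and FoxO arm all 20 genes were measured, 12 higher and 8 lower in ERβ scKO, with a median log2 ratio of 0.04 and none called by limma. Rps6kb2, a kinase of ribosomal protein S6, had the largest log2 ratio of the pathway lists, 0.68 with a standard error of 0.20 and limma's adjusted p of 0.837. It was at 13.6 and 17.3 FPKM in ERβ scKO, against 8.04 and 10.5 FPKM in Control, and the groups did not overlap. Eif4ebp1 and Eif4ebp2, which encode repressors of translation that mTOR inactivates, had log2 ratios of −0.26 and −0.23. The Eif4ebp1 ratio was −0.04 without Control replicate 1 and −0.49 without Control replicate 2.

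**Figure D5:**
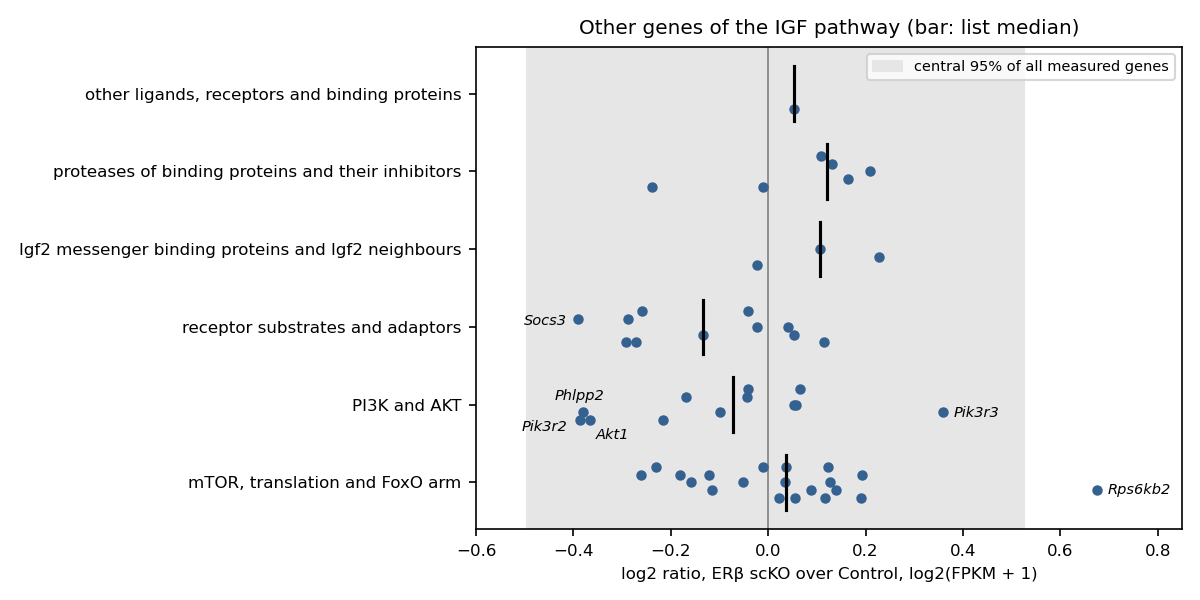
Log2 ratio of FPKM + 1, ERβ scKO over Control, for the 53 measured genes of the 6 pathway lists (points, spread vertically for legibility), with list medians as black bars and the central 95% of all measured genes shaded. Rps6kb2, at 0.68, lies outside the shaded range and the others lie within it.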

How the data were processed

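RNA was sequenced from 4 libraries of mouse satellite cells with a stranded kit for polyadenylated RNA, per the labels' protocols. TopHat, Cufflinks and the build mm10 are named in the submitters' processing notes; versions and annotation are not given in the sources used here. The authors deposited an FPKM value per gene and library, which is not a count. They also deposited a log2 fold change, a test statistic (a score), a p-value and a q-value per gene, per the file headers.

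Library values, as log2(FPKM + 1), were fitted in R 4.3.3 by limma 3.58.1 with a variance trend. Its standard errors are moderated, as each gene's variance is drawn towards the trend over all genes. The fit covered the 11201 genes averaging 1 FPKM or more, at a Benjamini-Hochberg adjusted p of 0.05 over all of them; the procedure was tested on simulated data. The design has no block. Fragment numbers were estimated from the steps of low FPKM values in genes with 1 annotated transcript over 1500 bases, with lengths from GENCODE M21 less 180 bases; they are approximate, assume the longest transcript and cover counting error only. Older symbols for 4 list genes were matched through RefSeq. RefSeq promoter windows on GRCm38.p6 (the mm10 assembly) were matched by symbol for all 10 genes. All 10 members are named; from each pathway list the 3 genes with the largest log2 ratios are named, and other genes were chosen after their values were seen. Members and lists were chosen with earlier results of these data known. One gene of the PI3K and AKT list is not reported here. The second sheet, 306 rows also in the table, was not used. Alternatives were pseudocounts of 0.1 and 5, an average of 5 FPKM or more, no filter, upper quartile scaling, no variance trend, replicate number as a block, each library left out and the authors' own test.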

Additional observations from a re-analysis of the deposited data

How the results depend on the processing

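No IGF axis gene was called under any of the 12 alternatives. The count of genes called over the table, 4 of 11201, was 2 with no filter, 0 by the authors' test (q under 0.05), 7 to 11 with a library left out, and 6 with replicate number as a block. Replicate numbers are shared by label only: across genes, the deviations of same-numbered libraries correlated at 0.21, and with 2 pairs this does not show that they were paired. With the replicate block 5 of the 9 IGF axis genes, against 2 without it, had an unadjusted p under 0.05, and Igfbp5 had an adjusted p of 0.274, and over its alternatives its log2 ratio stayed between 0.88 and 1.07 with adjusted p between 0.0589 (the authors' q) and 1. With each library left out in turn the log2 ratio ran from −0.17 to 0.73 for Igf2, −0.14 to 0.0094 for Igf1r, −0.028 to 0.12 for Igf2r, −0.66 to 0.21 for Igfbp2, −1.03 to 0.42 for Igfbp6 and −1.10 to 0.11 for Igfbp7. These 6 genes turned sign there and under none of the other alternatives; the cause was not tested. Igfbp3 (0.14 to 0.39), Igfbp4 (0.30 to 0.61) and Igfbp5 kept their sign throughout. Leaving out a library leaves 1 library in a group, whose spread is then taken from the other group. Igf1 entered only the fit with no filter. Depth limits Igf1 and Igfbp6, each under 10 fragments per library.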
